A study of Homo sapiens with 6 samples.

Results

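The insulin-like growth factor (IGF) genes examined here were 10 named genes: the binding proteins IGFBP2, IGFBP3, IGFBP4, IGFBP5, IGFBP6 and IGFBP7, the ligands IGF1 and IGF2, and the receptors IGF1R and IGF2R. They were taken by gene name from a table of 58735 gene rows, and 11 rows carried these names because IGF2 is listed under 2 identifiers. Of the 10 genes, 9 had at least 1 count and 8 passed the filter on low counts and were tested. With TGF-β1, IGFBP5, IGF1R and IGFBP7 rose, IGFBP3, IGFBP6 and IGFBP4 fell, IGF2R and IGF2 did not pass the test, and IGFBP2 and IGF1 were at or near the limit of detection.

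RNA was sequenced from 6 libraries of LX-2, an immortalised human line derived from hepatic stellate cells, labelled WT in genotype and grown in serum-containing medium. In 3 libraries, called TGF-β1 libraries here, the cells were transfected with NSUN2 siRNA and, 48 hours later, given recombinant human TGF-β1 at 5 ng/ml for 24 hours. In the other 3, called siRNA-alone libraries, the cells were transfected with the same siRNA and had no TGF-β1. The design text of the series names NAT10 as the siRNA target where the sample labels name NSUN2, and the sample labels are followed. When RNA was taken from siRNA-alone cells, relative to transfection, is not stated. All cells were transfected with the siRNA and belonged to 1 line, so every difference compares transfected LX-2 cells with and without TGF-β1. If the time since transfection differed between the groups, its effect cannot be told apart from that of TGF-β1. The labels call the replicates biological but do not state whether they were separate cultures. The p-values set the difference between groups against the spread between these libraries, which the fit estimates partly across genes.

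IGF1 and IGF2 are small secreted growth factors that signal through IGF1R, a receptor tyrosine kinase related to the insulin receptor. IGF2R has no kinase domain; it is the cation-independent mannose 6-phosphate receptor, which removes IGF2 from the cell surface and carries lysosomal enzymes. The IGFBPs are secreted proteins that hold IGFs in solution or on the matrix, are cut by proteases that release the ligand, and differ in their affinities. In the liver, IGF1 comes mainly from hepatocytes, and stellate cells are known to secrete several IGFBPs and to respond to IGFs.

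Totals ran from 25828504 to 29978361 counts in the TGF-β1 libraries and from 26957170 to 30034762 in the siRNA-alone libraries. NSUN2, the labelled siRNA target, had 97.0 to 102.7 CPM (counts scaled to library size with TMM factors, used throughout) in TGF-β1 libraries and 81.4 to 84.4 CPM in siRNA-alone libraries. It was called higher with TGF-β1, with a log2 fold change of 0.28 ± 0.04 (SE; edgeR adjusted p = 1.57e-06). Its knockdown could not be measured because cells without the siRNA were not analysed here. Of 13 rows for stellate cell markers, 10 averaged at least 1 CPM, with a summed level of 7467 to 8164 CPM in TGF-β1 libraries and 3696 to 3757 CPM in siRNA-alone libraries; LRAT was at 0 and DES and 1 of 2 RGS5 rows were below 1 CPM. Of 8 hepatocyte markers 1 reached 1 CPM, SERPINA1, with ALB and HNF4A below it and TTR, APOB and CYP3A4 at 0, and the list summed to 21.3 to 23.2 CPM in TGF-β1 libraries and 23.6 to 27.4 CPM in siRNA-alone libraries. Of 6 endothelial markers 0 reached 1 CPM. Of 6 macrophage markers 1 did, CSF1R, and the list summed to 12.6 to 13.0 CPM in TGF-β1 libraries and 3.998 to 5.71 CPM in siRNA-alone libraries, with PTPRC, CD163 and MARCO below 1 CPM. Of 5 cholangiocyte markers 2 did, SOX9 and KRT7, and the list summed to 56.8 to 58.5 CPM with TGF-β1 and 71.0 to 72.7 CPM with siRNA alone. The part of these lists in the results was not tested. In bulk RNA, fewer cells making a transcript and less transcript per cell cannot be told apart.

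The ligands were scarce. IGF1 (ENSG00000017427, chromosome 12, 102395874 to 102481744, minus strand, hg38) had 0 counts in all 6 libraries, and a count of 0 allows up to 3 counts, or 0.0145 FPKM in TGF-β1 libraries and 0.0128 FPKM in siRNA-alone libraries, over its full length and at the shallowest depth of each. The antisense transcript HELLPAR overlaps 82.4% of the exonic bases of IGF1, and whether strand was used in counting is unknown, so the 0 speaks mainly for the 1429 exonic bases that are not shared, which hold 600 of the 657 coding bases. Over those bases alone, 3 counts correspond to up to 0.0825 FPKM in TGF-β1 libraries and 0.0726 FPKM in siRNA-alone libraries. IGF2 (ENSG00000167244, chromosome 11, 2129112 to 2149603, minus strand) had 21, 24 and 20 counts in TGF-β1 libraries and 34, 29 and 23 in siRNA-alone libraries. Those counts correspond to 0.849, 0.837 and 0.772 CPM with TGF-β1 and 1.09, 0.952 and 0.821 CPM with siRNA alone. The ranges overlapped, and the log2 fold change of -0.22 had a 95% interval of -1.02 to 0.59 (edgeR quasi-likelihood test, adjusted p = 0.715).

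The IGF2 level is uncertain for a counting reason. On the same strand, other annotated genes cover 73.7% of its exonic bases: the second IGF2 row (ENSG00000284779), the INS-IGF2 readthrough gene and AC132217.1, each listed at 0 in all 6 libraries. How reads in shared exons were assigned is unknown, and 25.0% of the exonic bases are not shared with any other gene. On the opposite strand, IGF2-AS had 190 counts over the 6 libraries. H19, the imprinted noncoding RNA next to IGF2, was listed at 0 in all libraries.

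Of the receptors, IGF1R rose and IGF2R did not pass the test. IGF1R (ENSG00000140443, chromosome 15, 98648539 to 98964530, plus strand) had 139.4, 140.1 and 147 CPM in TGF-β1 libraries and 77.2, 80.4 and 73.7 CPM in siRNA-alone libraries. Every TGF-β1 library lay well above every siRNA-alone library. The mean was 142 ± 4.16 CPM with TGF-β1 and 77.1 ± 3.33 CPM with siRNA alone (SD, n = 3 each), a 1.84-fold rise with a log2 fold change of 0.88 ± 0.04 (SE; edgeR, adjusted p = 5.50e-21). That change stood at percentile 95.6 of the log2 fold changes of 17215 tested genes.

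IGF2R (ENSG00000197081, chromosome 6, 159969099 to 160113507, plus strand) was one of the more abundant transcripts of the group, at 509.8, 499.8 and 488 CPM in TGF-β1 libraries and 510.5, 514 and 514 CPM in siRNA-alone libraries. The groups did not overlap, but the distance was small, and the log2 fold change of -0.04 had a 95% interval of -0.10 to 0.02 (edgeR adjusted p = 0.330). Upper-quartile factors gave -0.08 (adjusted p = 0.0216) and scaling by library totals alone gave -0.16 (adjusted p = 2.57e-05), so its call depends on the scaling. Over all tested genes, scaling by totals shifted the median by -0.12 on the log2 scale, so that relative to it IGF2R was nearly level.

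On the length-corrected FPKM scale, the ratio of IGF1R to IGF2R was 0.350, 0.359 and 0.385 in TGF-β1 libraries and 0.194, 0.200 and 0.183 in siRNA-alone libraries. The insulin receptor INSR, which forms hybrid receptors with IGF1R, had 13.5, 14.0 and 11.0 CPM in TGF-β1 libraries and 12.3, 11.3 and 14.5 CPM in siRNA-alone libraries. Its groups overlapped, and its log2 fold change of 0.02 ± 0.12 (SE) did not pass the test (edgeR adjusted p = 0.926). The FPKM ratio of IGF1R to INSR was 7.74, 7.51 and 10.0 with TGF-β1 and 4.70, 5.35 and 3.81 with siRNA alone, with no overlap.

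**Figure D1:**
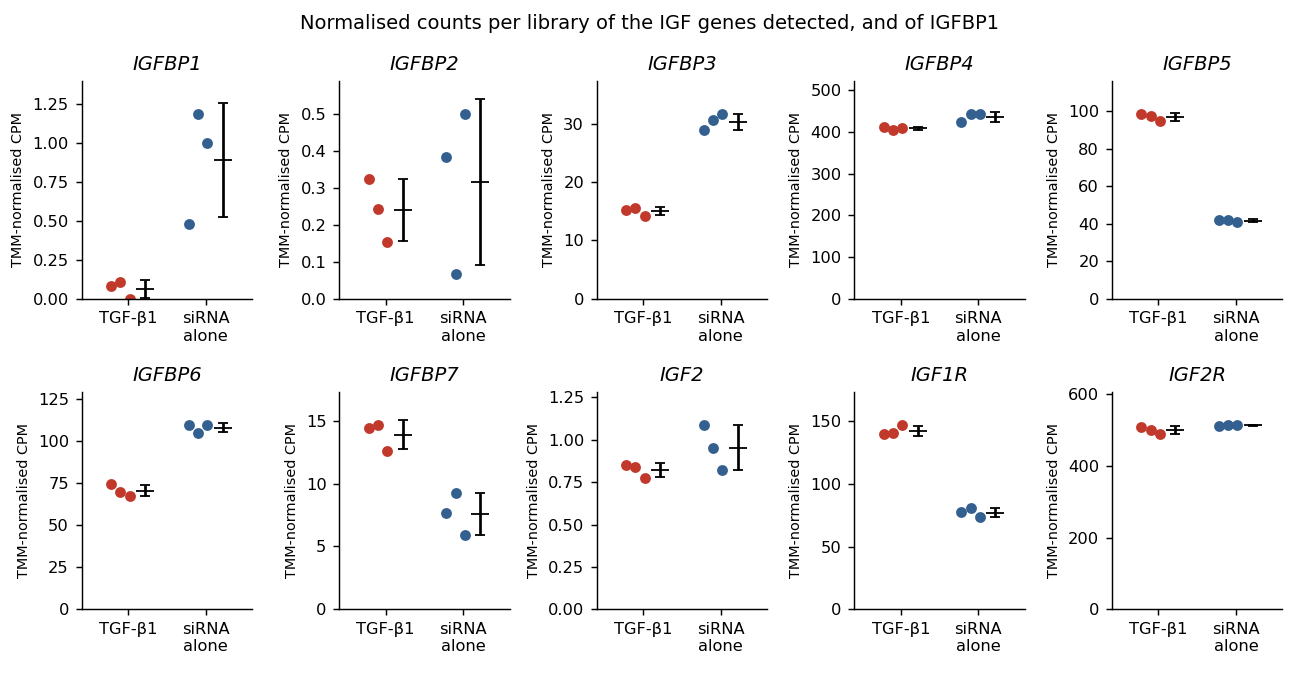
TMM-normalised CPM of 9 IGF genes and of IGFBP1 in each library; points are libraries, the bar beside them is the mean with its SD (n = 3), TGF-β1 libraries are red and siRNA-alone libraries blue, and each panel has its own axis from 0. IGFBP5, IGF1R and IGFBP7 sat higher with TGF-β1, IGFBP3 and IGFBP6 sat lower, and the IGFBP2 and IGF2 ranges overlapped at 1.09 CPM or less; IGF1, at 0 in all libraries, is not drawn.

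Among the binding proteins, IGFBP5 had the largest rise. IGFBP5 (ENSG00000115461, chromosome 2, 216672105 to 216695525, minus strand), which binds matrix components and heparin as well as IGFs, had 98.4, 97.6 and 94.7 CPM in TGF-β1 libraries and 41.8, 42.2 and 40.9 CPM in siRNA-alone libraries. The replicates lay close together and the groups far apart. The mean was 96.9 ± 1.92 CPM with TGF-β1 and 41.6 ± 0.67 CPM with siRNA alone (SD, n = 3 each), a 2.33-fold rise with a log2 fold change of 1.22 ± 0.05 (SE; edgeR adjusted p = 9.10e-24), at percentile 97.4 of all tested genes.

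IGFBP7 (ENSG00000163453, chromosome 4, 57030773 to 57110385, minus strand), a matrix-associated relative that binds IGFs with low affinity, had 14.4, 14.7 and 12.6 CPM in TGF-β1 libraries and 7.64, 9.22 and 5.93 CPM in siRNA-alone libraries. The groups did not overlap, but the siRNA-alone libraries were scattered. The coefficient of variation was 8.15% in TGF-β1 libraries, where counting error alone gives 5.22%, and 21.7% in siRNA-alone libraries, where it gives 6.61%. The log2 fold change was 0.87 ± 0.13 (SE; edgeR adjusted p = 5.56e-07). On the opposite strand, POLR2B and IGFBP7-AS1 overlap 18.9% of its exonic bases; POLR2B averaged 196 CPM in each group, with 33138 counts over the 6 libraries, its log2 fold change had a 95% interval of -0.07 to 0.07, and 270 of its exonic bases are shared. IGFBP7-AS1 had 0 counts. Since the use of strand in counting is unknown, reads of POLR2B may be part of the IGFBP7 counts, which bears on the level, fold change, rank and share given for IGFBP7.

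The largest fall was in IGFBP3 (ENSG00000146674, chromosome 7, 45912245 to 45921874, minus strand), the main IGF carrier of serum. It had 15.2, 15.6 and 14.2 CPM in TGF-β1 libraries and 28.9, 30.6 and 31.7 CPM in siRNA-alone libraries. The groups were far apart, and the highest TGF-β1 library lay well below the lowest siRNA-alone library. The mean was 14.98 ± 0.69 CPM with TGF-β1 and 30.4 ± 1.39 CPM with siRNA alone (SD, n = 3 each), a 2.03-fold fall with a log2 fold change of -1.02 ± 0.08 (SE; edgeR adjusted p = 1.00e-13), at percentile 4.09 of all tested genes.

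IGFBP6 (ENSG00000167779, chromosome 12, 53097436 to 53102345, plus strand), which prefers IGF2 over IGF1, had 74.4, 70.0 and 67.6 CPM in TGF-β1 libraries and 109.7, 105 and 109.6 CPM in siRNA-alone libraries. The groups were clearly separate. Its log2 fold change was -0.61 ± 0.05 (SE; edgeR adjusted p = 8.15e-15), a 1.53-fold fall.

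IGFBP4 (ENSG00000141753, chromosome 17, 40443461 to 40457731, plus strand), an inhibitor of IGF action that the protease PAPPA cleaves, had 411, 405 and 409 CPM in TGF-β1 libraries and 423, 442 and 442 CPM in siRNA-alone libraries. The groups did not overlap, and the fall was small, with a log2 fold change of -0.09 ± 0.03 (SE; edgeR adjusted p = 0.0134). The call was lost without siRNA-alone replicate 3 (adjusted p = 0.0635), without TGF-β1 replicate 2 (0.0670), without TGF-β1 replicate 3 (0.0529) and on log2(FPKM + 1) with no filter (0.0542). Its size was below that of the -0.12 shift of all genes under library totals.

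IGFBP2 (ENSG00000115457, chromosome 2, 216632828 to 216664436, plus strand) had 8, 7 and 4 counts in TGF-β1 libraries and 12, 2 and 14 in siRNA-alone libraries. It did not pass the filter and was not tested. The normalised ratio of summed counts, TGF-β1 over siRNA alone, was 0.768 (exact 95% interval 0.405 to 1.43, for counting error alone). A difference within that interval could not be resolved at this depth.

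Against the background of this comparison, 38.9% of 17215 tested genes passed at an adjusted p under 0.05, with 20.2% of tested genes higher and 18.7% lower, and 47.4% had no overlap between groups. Of the 10 IGF genes, 3 rose and 3 fell, and 7 of the 8 tested had no overlap. The median log2 fold change of those 8 was -0.07 and the median absolute value 0.74, beside -0.01 and 0.22 over all tested genes. A change of at least 1 on the log2 scale, which 6.51% of tested genes showed with a call, was seen for IGFBP5 and IGFBP3.

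**Figure D2:**
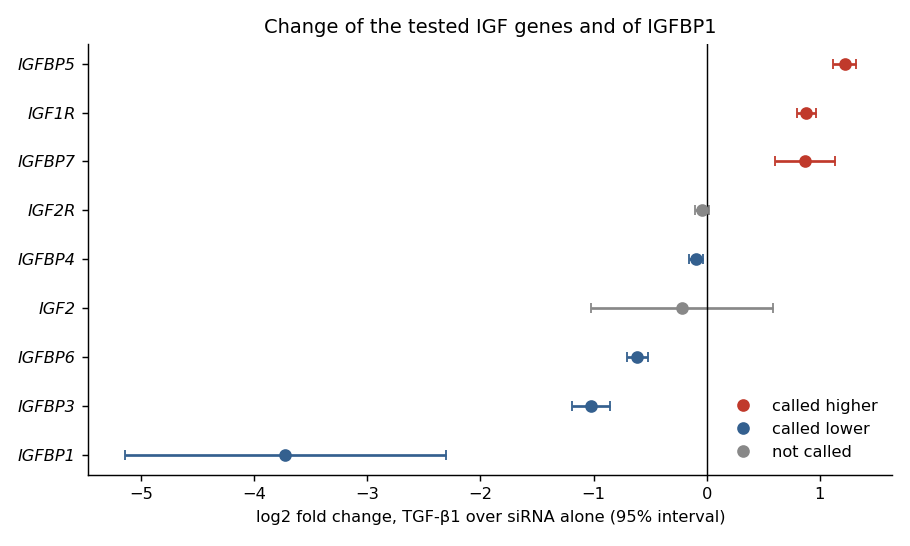
Log2 fold changes (TGF-β1 over siRNA alone) of the 8 tested IGF genes and of IGFBP1, with 95% intervals; red marks genes called higher, blue genes called lower and grey genes that did not pass. IGFBP5 at 1.22 and IGFBP3 at -1.02 lie at opposite ends of the 8, and the interval of IGF2 spans 0 widely.

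FPKM divides by gene length, so the levels of different genes can be ordered approximately. The length used counts every annotated exonic base, whether or not these cells use it, so close ranks and the shares of a sum are uncertain. With TGF-β1 the order of mean FPKM was IGFBP4 (180.5), IGFBP6 (51.1), IGF2R (27.2), IGFBP5 (14.6), IGF1R (9.92), IGFBP7 (7.002), IGFBP3 (3.19), IGF2 (0.114), IGFBP2 (0.0491) and IGF1 (0). Neighbours in that order had no overlapping libraries, but IGF1 and IGFBP2 cannot be ranked in either group, since the limit for IGF1 over its unshared bases lies above the mean of IGFBP2. With siRNA alone it was IGFBP4 (192), IGFBP6 (77.9), IGF2R (27.9), IGFBP3 (6.45), IGFBP5 (6.27), IGF1R (5.37), IGFBP7 (3.82), IGF2 (0.133), IGFBP2 (0.0644) and IGF1 (0). There, IGFBP3 and IGFBP5 overlapped and cannot be ranked.

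The FPKM ratio of IGFBP5 to IGFBP3 was 4.61, 4.45 and 4.73 in TGF-β1 libraries and 1.03, 0.978 and 0.917 in siRNA-alone libraries. Summed over IGFBP2 to IGFBP7, the level was 253.8 to 260.8 FPKM with TGF-β1 and 282.8 to 289.7 FPKM with siRNA alone. IGFBP4 made up 69.7% to 71.4% of the sum with TGF-β1 and 66.1% to 67.6% with siRNA alone, and IGFBP6 19.3% to 20.6% and 26.3% to 28.1%. The share of IGFBP5 was 5.65% to 5.78% with TGF-β1 and 2.12% to 2.23% with siRNA alone, that of IGFBP7 2.51% to 2.90% and 1.03% to 1.61%, and that of IGFBP3 1.19% to 1.30% and 2.18% to 2.32%. These sums and shares are descriptions and were not tested.

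**Figure D3:**
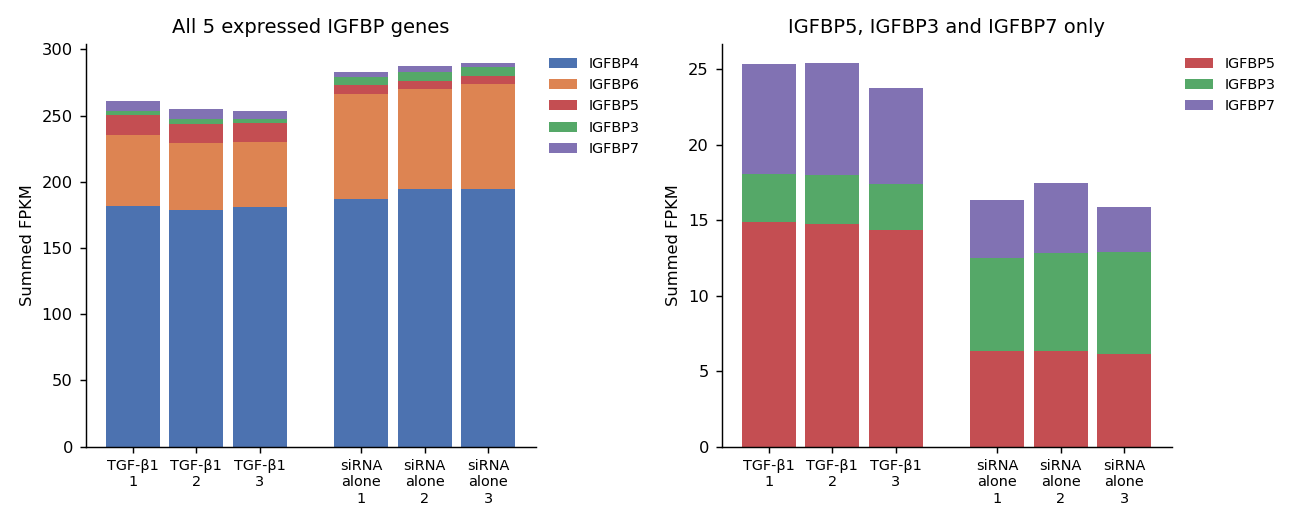
Stacked deposited FPKM of the expressed IGFBP genes in each library, TGF-β1 libraries left and siRNA-alone libraries right; the left panel holds IGFBP4, IGFBP6, IGFBP5, IGFBP3 and IGFBP7 and the right panel the 3 less abundant ones. IGFBP4 fills 66.1% to 71.4% of every bar, and in the right panel the IGFBP5 block is taller and the IGFBP3 block shorter with TGF-β1.

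Some IGFBP genes lie in neighbouring pairs. IGFBP2 and IGFBP5 face each other tail to tail on chromosome 2 with 7668 bases between them; IGFBP5 rose and IGFBP2 stayed under 1 CPM in all 6 libraries. IGFBP1 and IGFBP3 face each other in the same way on chromosome 7 with 18576 bases between them, and of these IGFBP3 fell clearly. IGFBP1 (ENSG00000146678), which is made mainly by hepatocytes, had 2, 3 and 0 counts in TGF-β1 libraries and 15, 36 and 28 in siRNA-alone libraries. Its normalised ratio of summed counts was 0.0717 (exact 95% interval 0.0226 to 0.174, for counting error alone), and it passed the test (edgeR adjusted p = 2.75e-05). It passed the filter through the siRNA-alone libraries, where it was higher, and had at most 1.181 CPM in any library. Its test therefore lends no separate support to a shared fall of the pair.

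RefSeq promoter windows, which span 250 bases before to 50 bases after an annotated start, matched 8 of the 10 genes, with 11 windows (GRCh38.p14). The windows of the 5 IGFBP and receptor genes with a call and a match are printed, 5′ to 3′ on the gene's strand, so that rising and falling genes can be compared. Capitals mark GC boxes (GGGCGG on either strand) and the TATA core (TATAAA on either strand).
IGFBP5 (chr2:216695500-216695799, minus strand): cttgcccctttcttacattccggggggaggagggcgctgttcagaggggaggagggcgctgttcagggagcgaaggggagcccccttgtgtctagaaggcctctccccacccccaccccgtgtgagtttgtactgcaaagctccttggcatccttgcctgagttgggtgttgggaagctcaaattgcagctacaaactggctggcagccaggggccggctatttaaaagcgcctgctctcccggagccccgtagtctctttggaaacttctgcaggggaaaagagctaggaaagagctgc
IGF1R (chr15:98648289-98648588, plus strand): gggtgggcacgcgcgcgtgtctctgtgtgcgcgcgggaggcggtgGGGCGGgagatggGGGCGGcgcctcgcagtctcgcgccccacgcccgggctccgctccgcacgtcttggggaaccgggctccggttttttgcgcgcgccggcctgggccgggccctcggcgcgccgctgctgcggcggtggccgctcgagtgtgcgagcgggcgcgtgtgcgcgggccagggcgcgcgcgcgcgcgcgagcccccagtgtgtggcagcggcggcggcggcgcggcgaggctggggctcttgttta
IGFBP3 (chr7:45921223-45921522, minus strand): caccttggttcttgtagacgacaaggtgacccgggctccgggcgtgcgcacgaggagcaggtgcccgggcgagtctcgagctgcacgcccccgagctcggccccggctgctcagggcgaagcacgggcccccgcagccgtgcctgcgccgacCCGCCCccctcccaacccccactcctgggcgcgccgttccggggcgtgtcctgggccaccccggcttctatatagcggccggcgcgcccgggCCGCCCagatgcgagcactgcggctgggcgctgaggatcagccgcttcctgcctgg
IGFBP6 (chr12:53097417-53097716, plus strand): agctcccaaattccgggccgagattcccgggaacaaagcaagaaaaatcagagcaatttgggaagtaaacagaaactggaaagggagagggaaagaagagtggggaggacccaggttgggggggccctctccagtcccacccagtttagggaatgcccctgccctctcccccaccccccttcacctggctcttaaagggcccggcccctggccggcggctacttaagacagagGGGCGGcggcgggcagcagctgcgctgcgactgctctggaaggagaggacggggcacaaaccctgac
IGFBP4 (chr17:40443200-40443499, plus strand): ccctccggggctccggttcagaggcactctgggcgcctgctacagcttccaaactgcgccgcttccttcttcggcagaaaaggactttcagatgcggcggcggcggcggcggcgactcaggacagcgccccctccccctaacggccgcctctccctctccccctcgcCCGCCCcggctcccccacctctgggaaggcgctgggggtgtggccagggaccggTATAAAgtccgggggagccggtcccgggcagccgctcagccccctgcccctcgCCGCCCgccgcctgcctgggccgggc

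Neither motif was shared by all 5 windows. IGFBP5 held neither motif, IGF1R held 2 GC boxes, IGFBP3 held 2, IGFBP6 held 1, and IGFBP4 held 2 together with a TATA core that starts 29 bases before the annotated start. A GC box occurs in 45.0% and a TATA core in 11.5% of 35116 windows of the same length. The SMAD core CAGAC, on either strand, is in 45.3% of all windows and in none of these 5; the AP-1 letters TGANTCA are in 7.71% of all windows and in none of them. GC content was 59.0% for IGFBP5, 79.7% for IGF1R, 74.7% for IGFBP3, 61.7% for IGFBP6 and 74.0% for IGFBP4, beside a median of 58.7%. Matches had to be exact, so TATA-like letters that differ from TATAAA were not counted in any window. The windows without a match can therefore still hold such variants. The matches are letters in a window and no measurement of binding was made.

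Genes whose products act on IGFBPs moved in both directions. Of 11 IGFBP proteases and protease inhibitors, 9 were tested, 4 rose and 5 fell, with a median log2 fold change of -0.22. Over all tested genes, 20.2% were called higher and 18.7% lower. Those shares apply beside the counts of every list below, and no list was tested as a set. PAPPA, the metalloproteinase that cuts IGFBP4 and IGFBP5, had 62.7, 69.2 and 68.2 CPM in TGF-β1 libraries and 52.1, 51.9 and 54.3 CPM in siRNA-alone libraries, a log2 fold change of 0.34 ± 0.05 (SE; edgeR adjusted p = 1.34e-06). The groups did not overlap.

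Both stanniocalcins, secreted inhibitors of PAPPA, fell. STC1 had 131, 147 and 147 CPM in TGF-β1 libraries and 342, 335 and 355 CPM in siRNA-alone libraries, a log2 fold change of -1.28 ± 0.04 (SE). STC2 had 181, 175 and 163 CPM with TGF-β1 and 273, 275 and 280.2 CPM with siRNA alone, a log2 fold change of -0.68 ± 0.04 (SE). Neither gene's groups overlapped. The FPKM ratio of IGFBP4 to PAPPA was 34.5, 30.8 and 31.5 in TGF-β1 libraries and 42.7, 44.8 and 42.8 in siRNA-alone libraries.

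Other proteases of the list moved in both directions. The gelatinase MMP2 rose by 3.12, the serine protease HTRA1, which itself carries an IGFBP domain, by 1.27 and ADAM12 by 0.40 on the log2 scale. MMP1 fell by 3.79, the stromelysin MMP3 by 2.30 at a mean of 0.649 CPM with TGF-β1 and 3.20 CPM with siRNA alone, and ADAM9 by 0.22. PAPPA2 and ADAM28 were not tested. In lists with a count of 5 or fewer, genes beyond the naming rule are also given, and these were picked once their values had been seen.

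Of 15 relatives of the family (IGFBP1, the carrier IGFALS and proteins that share the IGFBP domain), 9 were tested, 5 rose and 3 fell, with a median log2 fold change of 0.31. The matricellular gene CTGF rose by 2.36 ± 0.03 (SE), to 902, 914 and 892 CPM in TGF-β1 libraries against 178, 176 and 173 CPM in siRNA-alone libraries. Its relative CYR61 rose by 0.40, HTRA3 by 0.48 and CRIM1 by 0.31. NOV, of the same matricellular family, fell by 1.05 ± 0.16 (SE; edgeR adjusted p = 1.01e-06), and ESM1 fell by 0.46. IGFBP1 fell too, but it passed the filter through the siRNA-alone libraries, where it was higher. IGFALS, which completes the serum complex of IGF and IGFBP3, had 6, 0 and 5 counts in TGF-β1 libraries and 6, 0 and 4 in siRNA-alone libraries and was not tested.

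Inside the cell, 26 of 30 insulin and IGF receptor signalling genes were tested, and 8 rose, 5 fell and 13 did not pass, with a median log2 fold change of 0.00. Among all tested genes, 38.9% were called, 20.2% higher and 18.7% lower. With library totals alone the same list gave 4 higher and 12 lower. Without TGF-β1 replicate 3 it gave 3 lower. The adaptor IRS1, which links IGF1R to phosphatidylinositol 3-kinase, had 57.4, 60.3 and 56.8 CPM in TGF-β1 libraries and 104, 102 and 102 CPM in siRNA-alone libraries. Its groups were far apart, with a log2 fold change of -0.82 ± 0.05 (SE; edgeR adjusted p = 1.16e-18). IRS2 changed by -0.12 ± 0.07 (SE; edgeR adjusted p = 0.164), and without TGF-β1 replicate 1 it was called lower (adjusted p = 0.0171).

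FOXO1, a transcription factor that AKT keeps out of the nucleus, rose by 1.86 ± 0.11 (SE), with 22.7, 18.7 and 22.9 CPM in TGF-β1 libraries and 6.43, 5.58 and 5.71 CPM in siRNA-alone libraries. The lipid phosphatase INPPL1 rose by 0.41. The orphan insulin receptor relative INSRR rose by 2.202 ± 0.51 (SE) at a low level, with 29, 26 and 27 counts in TGF-β1 libraries and 5, 11 and 4 in siRNA-alone libraries. It passed the filter through the TGF-β1 libraries, and its call was lost on log2(FPKM + 1) with no filter (0.20, limma adjusted p = 0.0740). PTPN1, a phosphatase of the insulin receptor, fell by 0.26, PIK3R1 by 0.16 and FOXO3 by 0.15. The PIK3R1 call was lost without TGF-β1 replicate 3 (adjusted p = 0.0805) or siRNA-alone replicate 3 (0.0553). That of FOXO3 was lost without TGF-β1 replicate 2 (adjusted p = 0.228) or 3 (0.0787) and without siRNA-alone replicate 1 (0.0535) or 2 (0.0931).

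**Figure D4:**
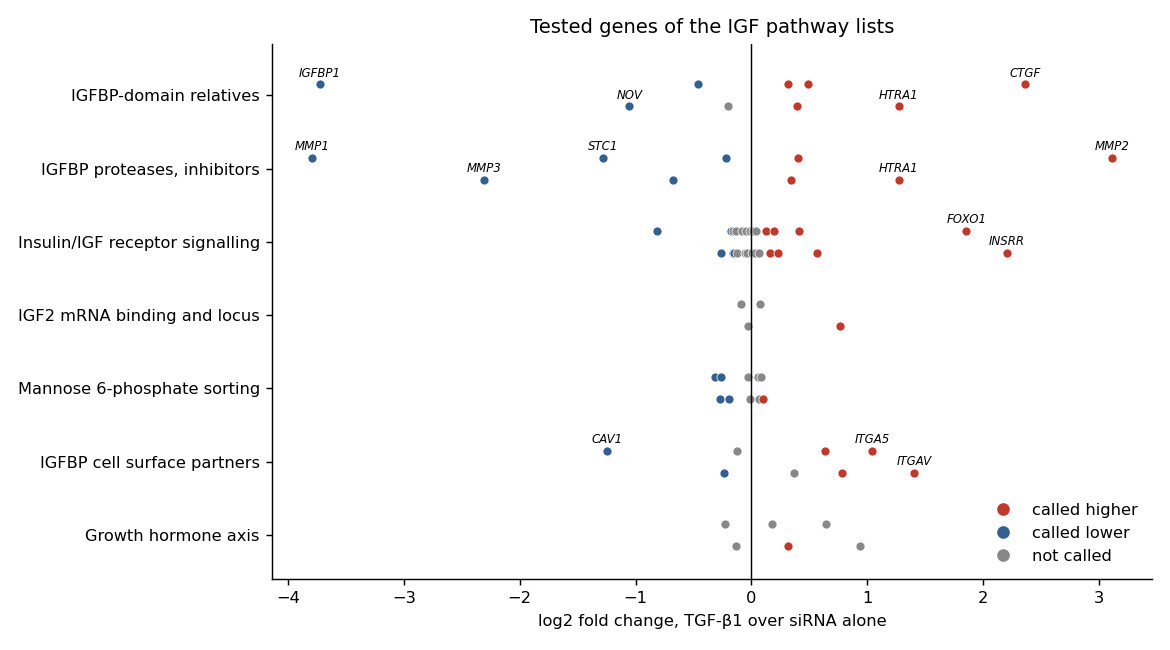
Log2 fold changes (TGF-β1 over siRNA alone) of the tested genes in the 7 IGF pathway lists, 1 point per gene and 1 row per list; red is called higher, blue called lower, grey not called, and genes beyond 1 in either direction are named. Receptor signalling genes cluster around 0 apart from FOXO1, INSRR and IRS1, whereas proteases spread from -3.79 for MMP1 to 3.12 for MMP2.

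Surface proteins reported to bind IGFBPs rose in 4 of 8 cases and fell in 2, with a median of 0.50. The shares over all tested genes were 20.2% higher and 18.7% lower. The integrin chains ITGAV, ITGA5, ITGB3 and ITGB1 rose by 1.40, 1.04, 0.78 and 0.64. CAV1, the caveolar coat protein, fell by 1.247, and the endocytic receptor LRP1 by 0.24. TMEM219, a receptor for IGFBP3, changed by -0.12 ± 0.08 (SE; edgeR adjusted p = 0.236).

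Among genes of mannose 6-phosphate sorting, in which IGF2R is the larger receptor, 1 of 10 rose and 4 fell, with a median of -0.02. Of all tested genes, 38.9% were called in either direction. GNPTG, a subunit of the enzyme that begins the mannose 6-phosphate tag, fell by 0.32, the sorting adaptor GGA2 by 0.27, NAGPA by 0.26 and the retromer subunit VPS26A by 0.20. The NAGPA call was lost without siRNA-alone replicate 2 (adjusted p = 0.153). VPS35 rose by 0.10, a call lost without siRNA-alone replicate 1 (adjusted p = 0.0906) or 2 (0.0863), and with library totals alone its log2 fold change was -0.02. The smaller receptor M6PR changed by 0.07 ± 0.04 (SE; edgeR adjusted p = 0.160) and was called higher without TGF-β1 replicate 1 (adjusted p = 0.0142). The FPKM ratio of IGF2R to M6PR was 0.563, 0.501 and 0.496 with TGF-β1 and 0.574, 0.567 and 0.537 with siRNA alone.

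Of the proteins that bind IGF2 mRNA, IGF2BP1 rose by 0.76 ± 0.15 (SE; edgeR adjusted p = 6.55e-05), with 8.04, 7.82 and 7.84 CPM in TGF-β1 libraries and 4.61, 4.07 and 5.28 CPM in siRNA-alone libraries. IGF2BP2 was far more abundant, at 227 to 249 CPM with TGF-β1 and 239 to 253 CPM with siRNA alone, and did not pass (log2 fold change -0.03, adjusted p = 0.535). IGF2BP3 did not pass either (-0.09 ± 0.10 SE, edgeR adjusted p = 0.526). Of 7 genes in this list of mRNA-binding proteins and the IGF2 locus, 4 were tested and 1 rose, with a median of 0.02. In the growth hormone axis, which controls IGF1 in hepatocytes, 1 of 6 genes rose (STAT5B, 0.31) and 0 fell, with a median of 0.24. CISH, a feedback inhibitor of growth hormone signalling, changed by 0.64 (edgeR adjusted p = 0.0560) and was called higher without TGF-β1 replicate 1 (adjusted p = 0.0165). The receptor GHR had 14, 20 and 12 counts in TGF-β1 libraries and 16, 2 and 9 in siRNA-alone libraries.

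The tested genes whose centred log2 CPM lay nearest to IGFBP5 over the 6 libraries were the matrix protein gene TNC, the cadherin CDH2 and ARHGEF40, with root mean square differences of 0.0255, 0.0261 and 0.0365. Nearest to IGFBP3 were NOP14-AS1, the chemokine CXCL6 and LINC02310, with differences of 0.0303, 0.0466 and 0.0479. LINC02310 averaged 0.283 CPM and did not pass the test (edgeR adjusted p = 0.123). With 2 groups of 3, this likeness mainly reflects an equal difference between the groups.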

How the data were processed

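The authors deposited a table of whole-number counts with no normalization and a table of FPKM, in which the authors divided those counts by gene length and by 1 number per library. In both, 6 further per-sample columns matched no sample and were not used. HISAT2 2.2.1, fastp and the hg38 build appear in the submitters' processing notes. The counting tool, its use of strand and the annotation are not given in those sources. All 58735 identifiers matched GENCODE release 29 by start and end, and that annotation gave exon overlaps. Counts were tested with edgeR 4.0.16 in R 4.3.3 (filterByExpr, minimum count 10; TMM; robust glmQLFit, glmQLFTest; group as the only term; two-sided; Benjamini-Hochberg over 17215 genes, adjusted p under 0.05). The standard error is the absolute log2 fold change over the square root of F. Within a group, replicates differed by more than sampling noise (chi-square per degree of freedom 3.66 to 4.86). No set test was run.

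The members and gene lists were chosen with earlier results of these data known. Named were all members, up to 4 called genes per list with the largest change and a mean of at least 1 CPM, IGFBP1, INSR, PAPPA, IGF2BP1 to IGF2BP3, NSUN2 and, for the largest rise and fall, the 3 nearest profiles; some genes that the rule takes are not reported here. On counts simulated over 17215 genes (5 draws of 200 changed genes), the test recovered 45.2% of 1.25-fold and 73.2% of 2-fold changes and called 0.0697% of unchanged genes. Far fewer genes changed there than the 38.9% of tested genes called in the data, so these rates do not carry over to the reported fit. Alternatives were other scalings and filters, DESeq2 1.42.0, leaving out each library, a replicate block, and limma 3.58.1 on log2(FPKM + 1) or log2(FPKM + 0.1). Intervals and limits for low counts cover counting error only.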

Additional observations from a re-analysis of the deposited data

How the results depend on the processing

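Under 16 alternatives, IGFBP5, IGF1R and IGFBP7 were called higher and IGFBP3 and IGFBP6 lower in all 16. The log2 fold change ranged from 1.099 to 1.24 for IGFBP5, 0.76 to 0.91 for IGF1R, 0.72 to 1.03 for IGFBP7, -1.14 to -0.83 for IGFBP3 and -0.73 to -0.58 for IGFBP6. The number of IGF genes called lower was 2 to 3 with a library left out and up to 4 with another scaling, through IGFBP4 and IGF2R. IGFBP2, tested where filters let it in, gave -0.87 to -0.02 with adjusted p from 0.385 to 0.917. Over all genes, library totals alone gave 2019 higher and 5354 lower genes (27.4% of calls higher) where the fit as reported gave 3471 and 3226 (51.8%), upper-quartile factors gave 42.0% of calls higher, and log2(FPKM + 1) with no filter gave 2337 higher and 1881 lower; the cause was not tested. Libraries with equal replicate numbers showed no shared deviation (correlations of deviations -0.00492, 0.0111 and -0.00909), which cannot show whether they shared a culture or day. The fit with the replicate number as a block gave 3 higher and 3 lower IGF genes and 3431 higher and 3182 lower genes in all. Receptor signalling counts of 8 higher and 5 lower became 4 and 12 with library totals alone and 4 and 2 on log2(FPKM + 1) with no filter. Mannose 6-phosphate sorting had 0 to 2 higher and 2 to 5 lower over the alternatives; the single gene called higher in the IGF2 mRNA list was lost on log2(FPKM + 0.1) and on log2(FPKM + 1) with no filter. Depth limits IGF1, IGF2 and IGFBP2.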

Other observations

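GRB10 and GRB14, adaptors that bind the insulin and IGF1 receptors, and IRS4 were listed at 0 in all 6 libraries. PIK3R2, a regulatory subunit of phosphatidylinositol 3-kinase, had 2, 0 and 3 counts in TGF-β1 libraries and 2, 4 and 1 in siRNA-alone libraries, beside 1332, 1527 and 1331 counts of PIK3R1 in TGF-β1 libraries and 1816, 1792 and 1689 in siRNA-alone libraries. Exon overlap with other annotated genes was not examined for GRB10, GRB14, IRS4 and PIK3R2. How reads in shared exons were assigned is unknown, so their low counts cannot be read as absence of the transcript. HELLPAR, which overlaps IGF1, had 61, 83 and 106 counts in TGF-β1 libraries and 101, 82 and 112 in siRNA-alone libraries.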
